A study of Rattus norvegicus with 2 samples.

Results

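The collagen genes described here are the 42 genes, of 32623 genes in the deposited count table, whose symbol consists of Col, a number, the letter a and a second number. They were grouped by the kind of assembly that their protein forms, which gave 10 fibrillar, 6 basement membrane, 5 beaded and 9 FACIT (fibril-associated) members and 12 others. Col1a2, Col6a3 and Col21a1 were not among the symbols of the table. All sums and shares of collagen below therefore leave out these chains of types I, VI and XXI. They were followed through the cells of rat carotid artery profiled with the 10x Genomics platform, which tags each captured RNA molecule with a unique molecular identifier (UMI). The control group was 1 library of normal left carotid arteries and the case group 1 library of right carotid arteries stripped with a balloon catheter, each pooling the arteries of 2 SD (Sprague-Dawley) rats, 28 days after injury. Per the labels the rats were 12 weeks old, and per the methods they were male and gave both arteries, the right external carotid was tied off, and all arteries were dispersed with trypsin and collagenase. No group had a second library, so no difference between the groups could be tested. Each 95% interval below covers the error of counting UMIs or cells only, and the side of injury, the library and its depth cannot be told apart.

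Collagens are secreted or membrane proteins built from chains wound into a helix. Fibrillar collagens form the fibres that give the media and adventitia their tensile strength, whereas type IV chains form the sheet-like network of the basement membrane around each vascular smooth muscle cell (VSMC) and under the endothelium. Type VI forms beaded filaments between cells and fibres, FACIT members sit on the surface of fibrils, types XV and XVIII (multiplexins) carry sugar chains and lie at basement membranes, and type VIII forms short-chain networks in vessel walls. After balloon injury, VSMCs and adventitial cells are known to lay down collagen in the thickened inner layer.

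The control library held 3321 barcodes and the case library 5656, and 2229 and 4890 of these passed quality control with at least 1000 UMIs. Median depth was 10919 UMIs per control cell and 5174 UMIs per case cell, and 21 barcode sequences occurred in both libraries. Cells were assigned to classes by sums of marker genes that included no collagen. These sums set the classes, so the separation of the markers was partly given by the gates. Control fibroblast-like cells had a median of 332 fibroblast marker UMIs per 10000 UMIs against 7.11 VSMC marker UMIs. Control endothelial-like cells had 27.1 endothelial against 11.3 VSMC marker UMIs, and control Schwann-like cells 37.0 Schwann against 14.2 VSMC marker UMIs. The gates gave 740 control and 1467 case fibroblast-like cells, 1150 and 2606 VSMC-like cells, 53 and 212 endothelial-like cells, 45 and 109 macrophage-like cells, and 18 and 45 Schwann-like cells. A further 105 control and 103 case cells carried VSMC and fibroblast markers together, 108 and 317 cells stayed unassigned and 10 and 31 were mixed. Within 20% of the limit of the VSMC gate lay 88 control and 136 case cells, and of the fibroblast gate 14 and 86 cells.

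Over all these cells, collagen genes contributed 426536 of the control UMIs (1.80%) and 373099 of the case UMIs (1.38%). Fibroblast-like cells were the main source, with 70.5% of the collagen UMIs in the control library and 65.2% in the case library, and VSMC-like cells followed with 23.8% and 26.4%. In the median fibroblast-like cell 2.56% of UMIs were collagen in the control library and 1.66% in the case library, and in the median VSMC-like cell 0.722% and 0.599%. The spread between fibroblast-like cells was wide. Their 5th to 95th percentiles ran from 0.435% to 9.26% in the control library and from 0.311% to 8.25% in the case library.

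**Figure D1:**
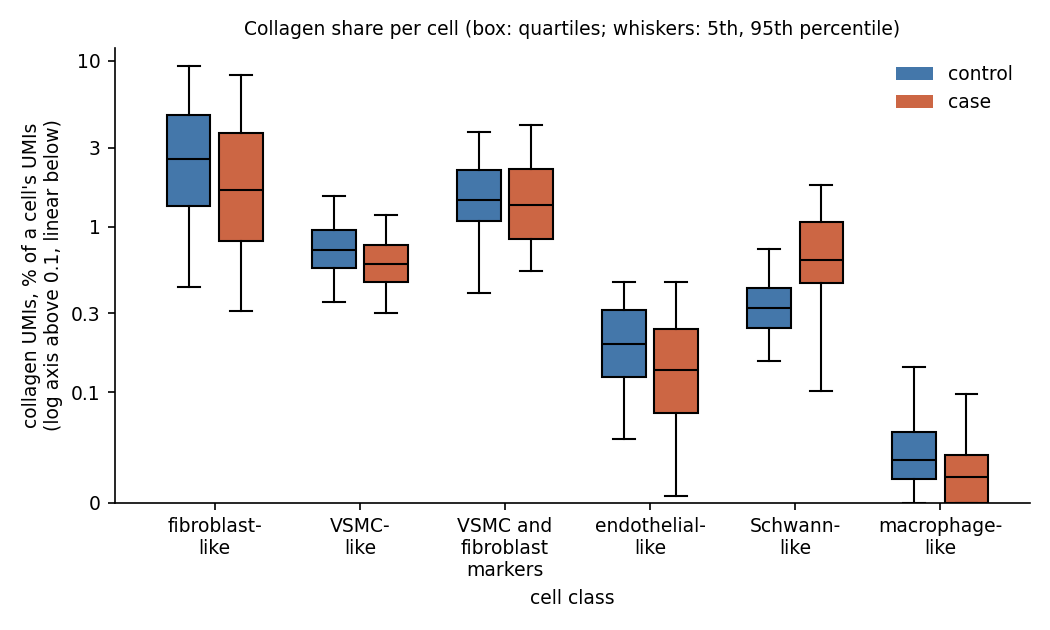
Share of each cell's UMIs that came from collagen genes (y axis, percent, logarithmic above 0.1 and linear below), by cell class and library; the line in a box is the median cell, the box the quartiles and the whiskers the 5th and 95th percentiles. Control fibroblast-like cells had the highest median, 2.56%, and case macrophage-like cells the lowest, 0.0233%.

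A floor was read from macrophage-like cells, chosen as a class that should lack fibrillar collagen RNA. For the other groups of members their level serves as a comparison only. Whether their collagen UMIs came from free RNA or from the cells themselves was not tested. All collagens together reached 457 CPM (UMIs per 1000000 UMIs of the class) in control and 306 CPM in case macrophage-like cells, whose median depth was 8623 UMIs and 4930 UMIs. Col1a1 and Col3a1 made up most of the collagen in macrophage-like cells, with a UMI ratio of 1.21 (0.792 to 1.86) in the control library. This was within counting error of both the 1.22 (1.21 to 1.22) in fibroblast-like and the 1.08 (1.06 to 1.10) in VSMC-like cells. Endothelial-like cells had another ratio, 0.330 (0.247 to 0.436) in the control library. Macrophage-like cells also held 8 control and 3 case UMIs of the FACIT member Col19a1, at 20.8 CPM (8.97 to 40.9) and 5.28 CPM (1.09 to 15.4).

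Of the 42 members, 27 had at least 50 UMIs over the kept cells of both libraries. The other 15 were Col28a1 with 48 UMIs, Col20a1 and Col27a1 with 41 each, Col9a1 with 15, Col6a5 with 11, Col22a1 with 8, Col9a2 with 7, Col2a1 with 5, Col9a3, Col10a1 and Col24a1 with 4 each, Col25a1 and Col26a1 with 1 each, and Col6a4 and Col23a1 with 0. The cartilage genes Col2a1, Col9a1, Col9a2, Col9a3 and Col10a1 were thus close to undetected in both arteries at this depth. UMIs count molecules and were not divided by gene length.

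**Figure D2:**
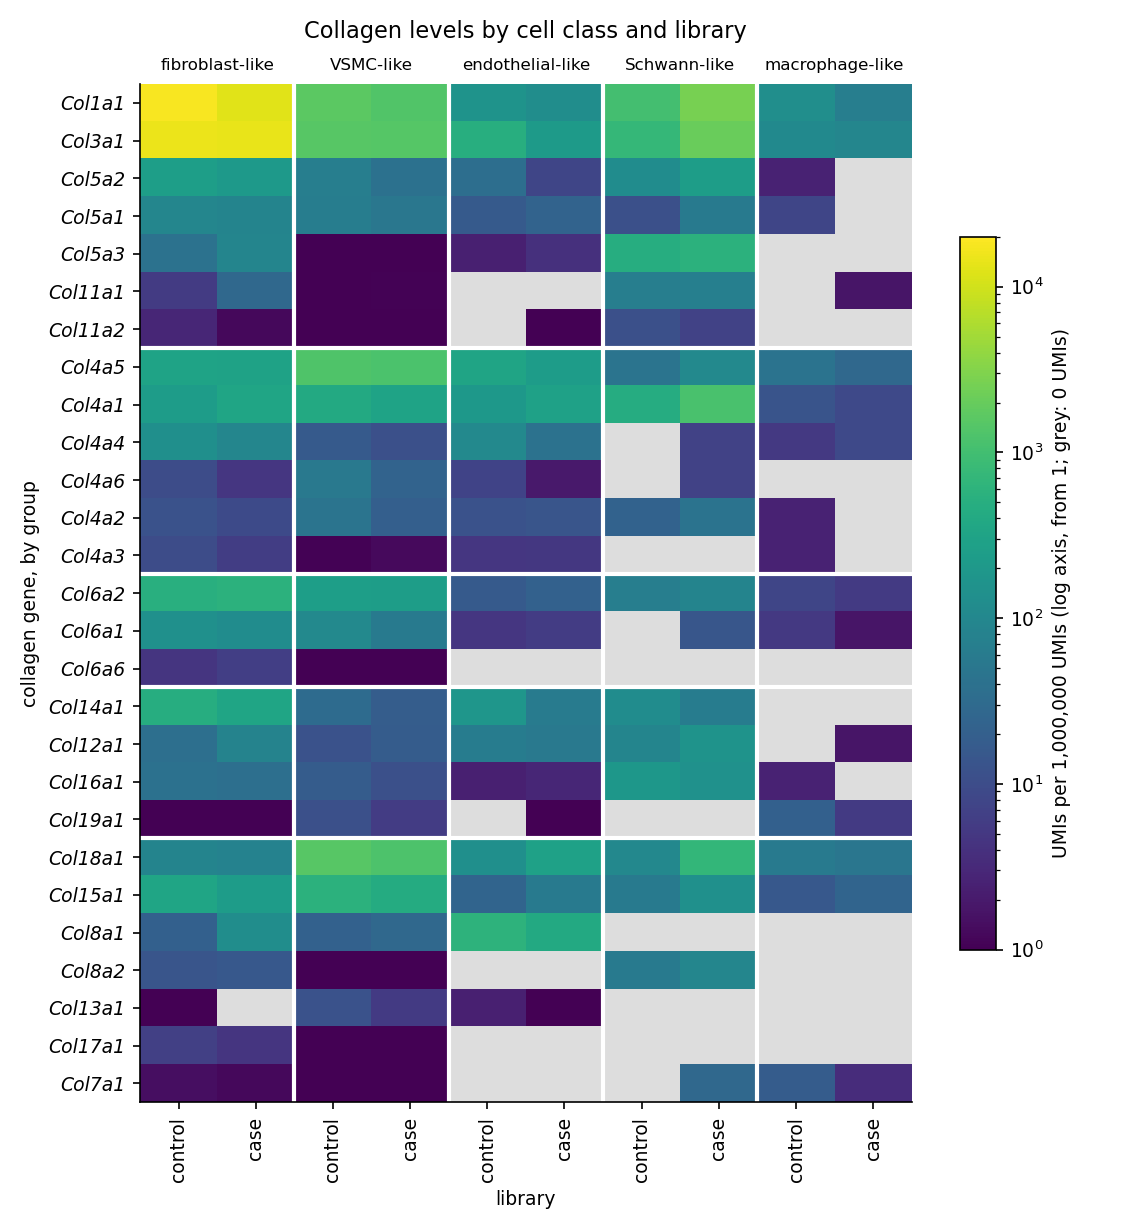
Level of the 27 collagen genes with at least 50 UMIs (rows, in the order fibrillar, basement membrane, beaded, FACIT and other, separated by white lines) in 5 cell classes of the control and case libraries (columns); colour is UMIs per 1000000 UMIs on a log axis and grey marks 0 UMIs. Col1a1 and Col3a1 were brightest in fibroblast-like cells, Col18a1 and Col4a5 in VSMC-like cells and Col8a1 in endothelial-like cells.

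Fibrillar members dominated fibroblast-like cells, where they made up 93.3% of collagen UMIs in the control and 92.0% in the case library. Col1a1, a chain of type I collagen, the main fibre of the adventitia, stood at 18162 CPM in control and 12923 CPM in case fibroblast-like cells. The case level was lower by 0.49 on the log2 scale (log2 change -0.49, -0.50 to -0.48). Col3a1, the chain of the finer type III fibres, was nearly level, with 14943 and 14309 CPM (-0.06, -0.07 to -0.05). Col1a1 thus exceeded Col3a1 in the control cells, whereas in the case cells the order was turned, and their UMI ratio went from 1.22 to 0.903 (0.896 to 0.911). The same turn was seen in VSMC-like cells, with a ratio of 1.08 (1.06 to 1.10) in the control and 0.927 (0.909 to 0.945) in the case library.

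Type V and type XI chains are minor fibrillar collagens that are built into type I fibres and set their width. Col5a2 was at 254 CPM in control and 211 CPM in case fibroblast-like cells (-0.27, -0.36 to -0.17), and Col5a1 at 93.0 and 88.2 CPM (-0.08, -0.23 to 0.07). Against these rather steady levels, Col5a3 went from 41.4 to 89.9 CPM (1.12, 0.93 to 1.31). Col11a1 went from 5.62 to 28.5 CPM (2.34, 1.89 to 2.83), on 47 control and 231 case UMIs. Control macrophage-like cells held 0 Col11a1 UMIs, where a floor of 3 UMIs would be 7.79 CPM, above its control fibroblast-like level. In case macrophage-like cells it was at 1.76 CPM (0.0446 to 9.81), on 1 UMI. VSMC-like cells held little of Col5a3 and Col11a1, 0.5% or 1.6% of Col5a3 UMIs and 10.0% or 5.8% of Col11a1 UMIs in the control or case library. Col11a2 had 24 control and 10 case UMIs in fibroblast-like cells.

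Among the other groups in fibroblast-like cells, Col8a1, a chain of the short-chain type VIII network, differed most. It had 175 UMIs in the control library (20.9 CPM) and 1054 UMIs in the case library (130.2 CPM), a log2 change of 2.64 (2.41 to 2.88). Its partner chain Col8a2 stayed at 13.5 and 15.1 CPM (0.16, -0.22 to 0.54). Col12a1, a FACIT member that coats type I fibres, went from 37.7 to 84.0 CPM (1.16, 0.96 to 1.35), whereas Col14a1, another FACIT member, went from 481 to 332 CPM (-0.53, -0.60 to -0.46). Col16a1 was at 39.9 and 37.9 CPM (-0.07, -0.30 to 0.15).

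For the beaded type VI chains, Col6a2 was at 515 and 577 CPM in fibroblast-like cells (0.16, 0.10 to 0.22) and Col6a1 at 145 and 121 CPM (-0.25, -0.38 to -0.13). Col6a6 had 38 and 51 UMIs. Of the basement membrane chains, Col4a1 was higher in the case library, at 340 against 241 CPM (0.49, 0.41 to 0.58), and Col4a5 was at 316 and 302 CPM (-0.06, -0.14 to 0.02). Col4a4 was at 138 and 94.7 CPM (-0.54, -0.68 to -0.41), Col4a3 at 9.80 and 5.93 CPM (-0.73, -1.27 to -0.19) and Col4a6 at 9.80 and 4.82 CPM (-1.03, -1.61 to -0.46). The multiplexin Col15a1 was at 339 and 242 CPM (-0.49, -0.57 to -0.41), and Col18a1, whose end fragment is endostatin, at 88.0 and 81.9 CPM (-0.10, -0.26 to 0.05). In control macrophage-like cells Col18a1 was at 59.7 CPM (37.9 to 89.6), which overlaps the control fibroblast-like interval (81.7 to 94.6). Fibroblast-like cells were also the main holders of the transmembrane collagen Col17a1, with 55 of its 60 control UMIs and 37 of its 43 case UMIs.

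In all, 23 collagen genes had at least 50 UMIs in fibroblast-like cells, and 4 of these (17.4%) were at least 1.5-fold higher in the case library, namely Col5a3, Col8a1, Col11a1 and Col12a1. Of all 9071 genes that passed this filter in these cells, 7.45% were higher by that much. Only Col4a3 and Col4a6 among the 23 (8.70%) were lower by at least 1.5-fold, against 15.2% of all genes. Case macrophage-like cells held 0 UMIs of either gene, where a floor of 3 UMIs would be 5.28 CPM. The case fibroblast-like levels of Col4a3 and Col4a6, 5.93 and 4.82 CPM, were about at that floor. Control macrophage-like cells held 1 Col4a3 UMI, with an interval that overlaps the control fibroblast-like interval. Most Col4a6 UMIs lay in VSMC-like cells in both libraries. The median log2 change of the 23 was -0.08, against -0.09 over all genes. Summed over all members, collagen was 35924 CPM (35795 to 36052) in the control and 30043 CPM (29924 to 30163) in the case library, a log2 change of -0.26 (-0.27 to -0.25), most of it Col1a1.

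**Figure D3:**
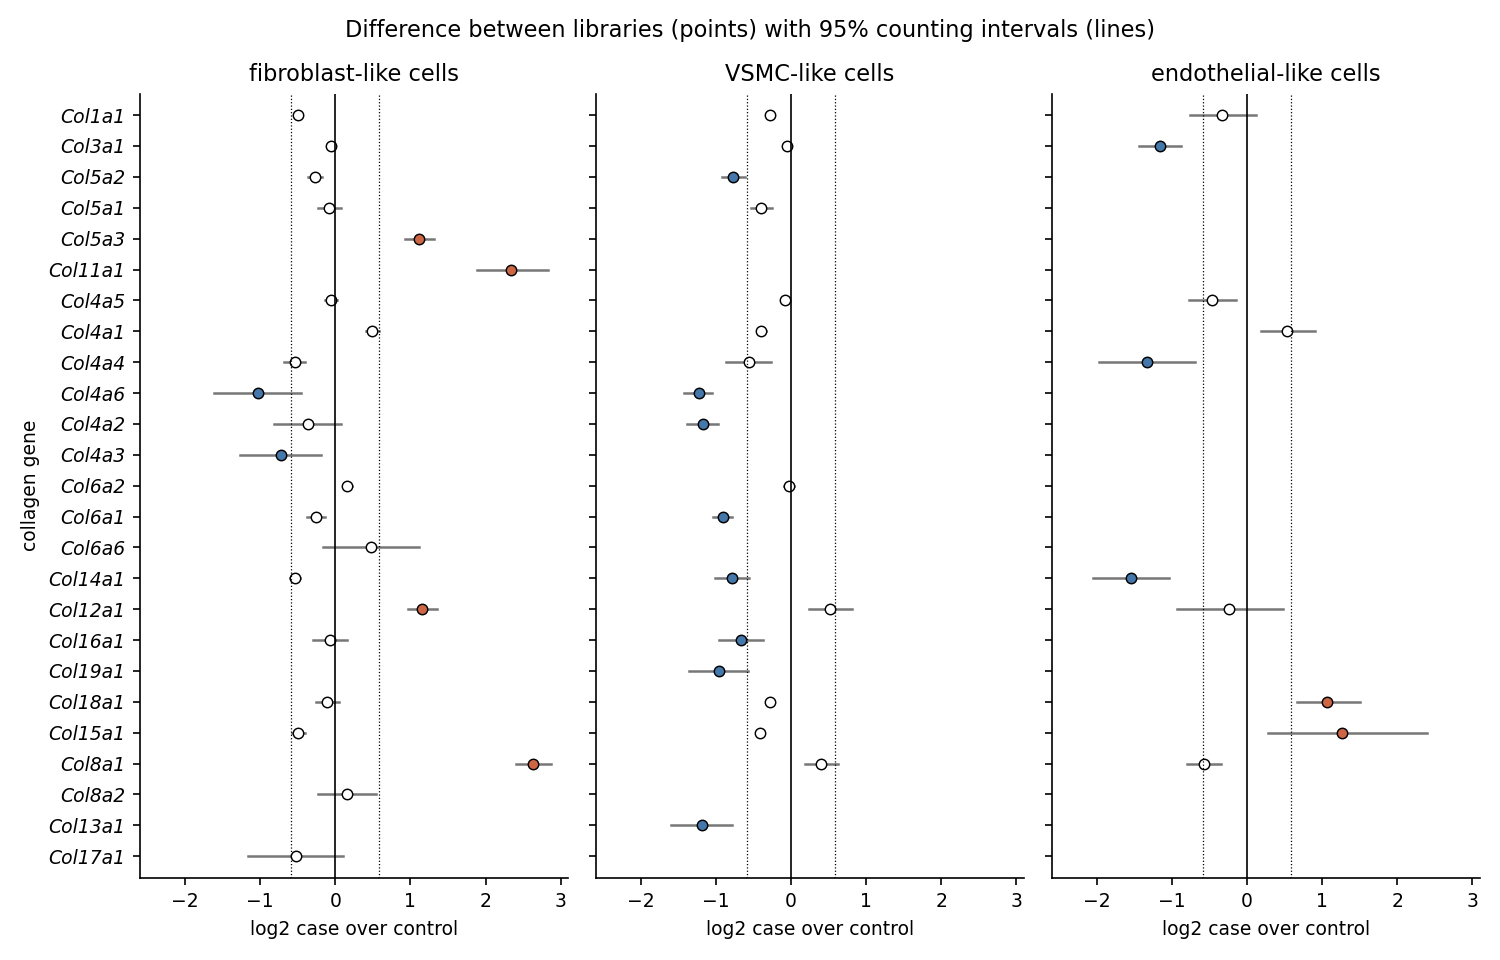
Difference between libraries (x axis, log2 of case over control CPM) for each collagen gene with at least 50 UMIs in the class, in fibroblast-like, VSMC-like and endothelial-like cells; points are the values, lines 95% counting intervals, dotted lines 1.5-fold, and filled points lie past it. Col8a1 at 2.64 and Col11a1 at 2.34 lie farthest right in fibroblast-like cells, while the 8 filled points of VSMC-like cells all lie left of 0.

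The 4 higher genes were spread over cells in different ways. Col8a1 UMIs were found in 43 of 740 control and 289 of 1467 case fibroblast-like cells, up to 64 in 1 cell, and Col11a1 UMIs in 109 case cells. Since control cells were deeper, cells were also thinned to 2000 UMIs each, which left out 35 control and 66 case fibroblast-like cells. Col8a1 was then seen in 2.98% (1.85 to 4.52) of control and 12.4% (10.7 to 14.3) of case cells, and unthinned in 5.81% and 19.7%. After thinning, Col12a1 was seen in 4.82% and 12.9% of cells, Col5a3 in 6.38% and 11.6%, and Col11a1 in 1.28% and 4.07%. No thinned macrophage-like cell held a UMI of Col8a1, Col5a3 or Col12a1 in either library (0 of 44 and 0 of 104 cells), which allows shares of up to 6.82% and 2.88% (a floor of 3 cells), and the control shares of these 3 genes lay below that limit. Over all UMIs of macrophage-like cells Col8a1 had 0 UMIs, where a floor of 3 UMIs would be 7.79 CPM in the control and 5.28 CPM in the case library. The number of case macrophage-like cells with Col11a1 after thinning was 1. For Col1a1, thinned shares hardly differed between the libraries, 99.0% and 98.6% of fibroblast-like cells against 20.5% and 11.5% of macrophage-like cells.

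Fibroblast-like cells were split further by the genes Postn (periostin, a matrix protein of repair tissue), Gfpt2 (hexosamine synthesis) and Pi16 (a marker of adventitial fibroblasts). A cell that passed several of these sub-gates was counted as Postn-positive before Gfpt2-high, and as Gfpt2-high before Pi16-high. The split gave 9 control and 139 case Postn-positive cells, 208 and 407 Gfpt2-high cells, 275 and 232 Pi16-high cells and 248 and 689 other cells. Counted in this order, Pi16-high cells were 37.2% (33.7 to 40.8) of control and 15.8% (14.0 to 17.8) of case fibroblast-like cells, and Postn-positive cells 1.22% (0.558 to 2.30) and 9.48% (8.02 to 11.1). Each sub-gate needed a set number of UMIs of its gene per 10000 UMIs (Postn 5, Gfpt2 20, Pi16 10) and at least 2 UMIs. The part of the unequal depth in these shares was not tested.

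Pi16-high cells held the most collagen in both libraries, with 43104 CPM of all members in the control and 42661 CPM in the case library. Apart from the Postn-positive cells, Gfpt2-high cells differed most between the libraries, with 31959 and 19382 CPM (-0.72 on the log2 scale). Within them Col1a1 was at 17266 and 8878 CPM and Col3a1 at 12173 and 8128 CPM, so Col1a1 stayed above Col3a1 in the case library. In the other 3 sub-gates the order turned. In Pi16-high cells Col1a1 was at 22025 and 19939 CPM and in the other cells at 15428 and 13007 CPM. Postn-positive cells went the other way, with 10704 CPM of all members in the 9 control cells and 41104 CPM in the case cells (1.94, 1.84 to 2.04). In them Col1a1 was at 3995 CPM in the control and 15337 CPM in the case library (1.94, 1.78 to 2.10), and Col3a1 at 3311 and 22005 CPM (2.73, 2.56 to 2.91), the highest level of that gene in any of the 4 sub-gates. The 9 control cells held Col18a1 at 871 CPM, against 145 CPM in the case Postn-positive cells. In control Gfpt2-high, Pi16-high and other cells Col18a1 was at 67.1, 73.4 and 105 CPM. Whether the 9 control cells were of the same kind as the case Postn-positive cells was not tested.

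The 4 higher genes had different homes. Col8a1 was mainly in Pi16-high cells in the control library, which held 77.1% of its fibroblast-like UMIs, and mainly in the other cells in the case library, which held 66.7%. In Pi16-high cells its level was the same within counting error, 49.3 CPM (41.3 to 58.4) and 51.1 CPM (39.0 to 65.8). In the other cells it went from 11.5 CPM (7.65 to 16.6) to 212 CPM (196 to 228), and in Gfpt2-high cells from 3.53 CPM (1.76 to 6.31) to 52.9 CPM (44.5 to 62.4). Col11a1 lay in the other cells in both libraries, with 68.1% and 71.9% of its fibroblast-like UMIs, at 13.2 CPM (9.0 to 18.6) and 50.0 CPM (42.7 to 58.2).

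Col5a3 had its highest level in case Postn-positive cells, at 239 CPM (208 to 272), but these held 30.8% of its case fibroblast-like UMIs. Gfpt2-high case cells held 33.5% of them and the other case cells 29.0%. None of the Col5a3 UMIs were found in the 9 control Postn-positive cells, in which a floor of 3 UMIs over the group would be 37.3 CPM. It also went from 35.9 to 91.5 CPM in Gfpt2-high cells, but was near level in Pi16-high cells (35.1 and 41.7 CPM) and in the other cells (56.8 and 63.6 CPM). Col12a1 was highest in case Postn-positive cells too, at 157 CPM (132 to 184), and differed most between the libraries in the other cells, at 29.2 and 90.1 CPM.

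**Figure D4:**
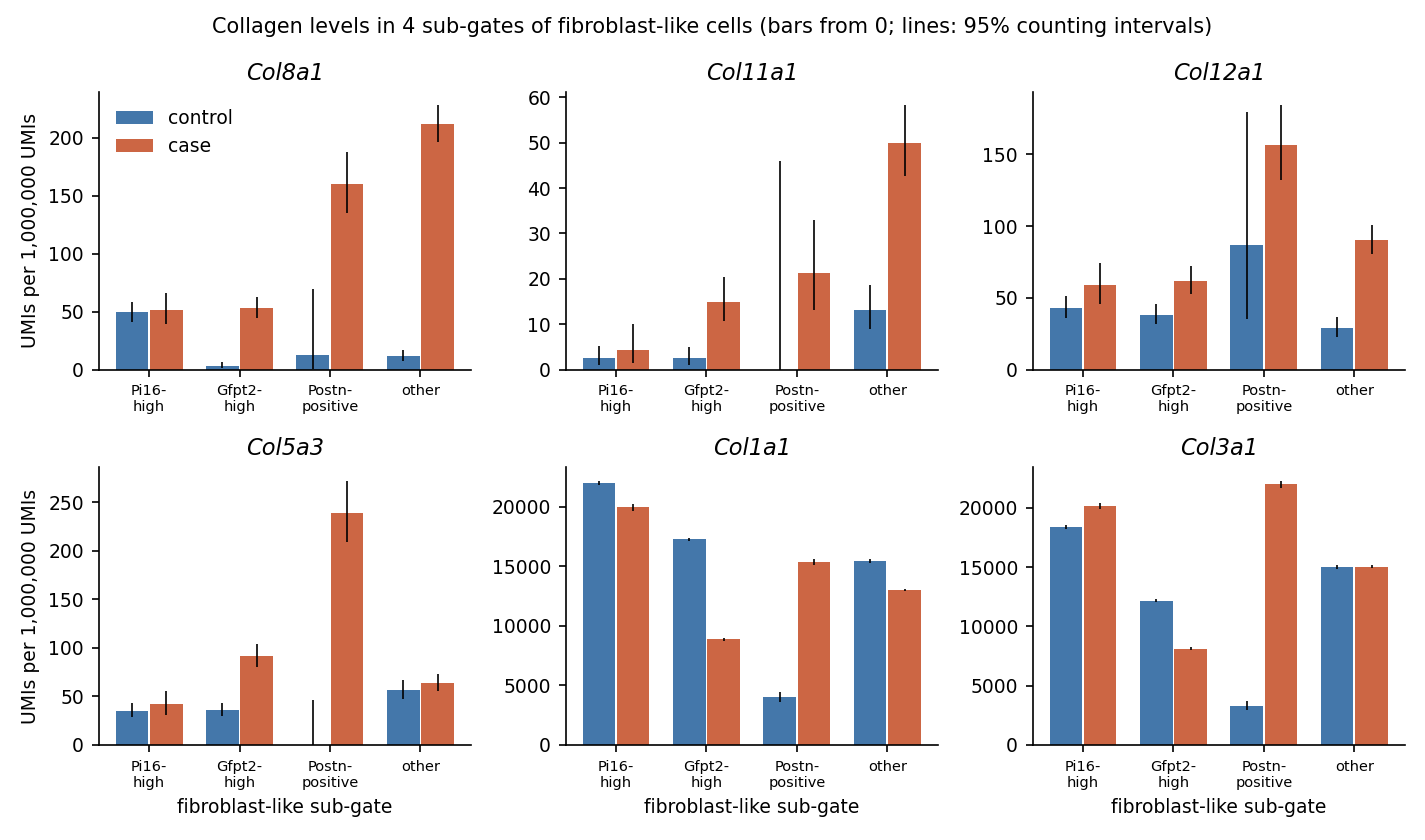
Level (y axis, UMIs per 1000000 UMIs, bars from 0 with 95% counting intervals as lines) of Col8a1, Col11a1, Col12a1, Col5a3, Col1a1 and Col3a1 in 4 sub-gates of fibroblast-like cells of the control and case libraries. Col8a1 and Col11a1 were highest in the other case cells, Col5a3 and Col12a1 in case Postn-positive cells, and only 9 control cells were Postn-positive.

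For Col5a3, Col8a1 and Col11a1 the RefSeq promoter windows (build GRCr8, 250 bases before to 50 bases after the gene start, in the direction of the gene) are printed to be read side by side. Each of these 3 genes was higher in case fibroblast-like cells as a class, though in different sub-gates. Capitals mark GGGCGG on either strand, a GC box. A window was at hand for 33 of the 42 members and for 22 of the 27 with at least 50 UMIs, and not for Col12a1. The windows lie at chr8:27625899-27626198 (minus strand), chr11:56246532-56246831 (plus strand) and chr2:204508886-204509185 (plus strand).
Col5a3: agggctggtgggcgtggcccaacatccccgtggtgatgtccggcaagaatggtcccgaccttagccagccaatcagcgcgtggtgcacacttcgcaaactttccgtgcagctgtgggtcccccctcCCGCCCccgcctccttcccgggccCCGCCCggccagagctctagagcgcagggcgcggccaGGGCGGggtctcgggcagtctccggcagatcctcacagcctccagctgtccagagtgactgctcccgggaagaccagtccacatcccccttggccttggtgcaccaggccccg
Col8a1: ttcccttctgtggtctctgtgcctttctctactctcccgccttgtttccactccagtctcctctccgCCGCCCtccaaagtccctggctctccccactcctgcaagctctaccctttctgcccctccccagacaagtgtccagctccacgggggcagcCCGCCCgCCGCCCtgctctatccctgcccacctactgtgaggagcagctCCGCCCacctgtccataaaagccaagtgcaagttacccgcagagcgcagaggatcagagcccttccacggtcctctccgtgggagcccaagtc
Col11a1: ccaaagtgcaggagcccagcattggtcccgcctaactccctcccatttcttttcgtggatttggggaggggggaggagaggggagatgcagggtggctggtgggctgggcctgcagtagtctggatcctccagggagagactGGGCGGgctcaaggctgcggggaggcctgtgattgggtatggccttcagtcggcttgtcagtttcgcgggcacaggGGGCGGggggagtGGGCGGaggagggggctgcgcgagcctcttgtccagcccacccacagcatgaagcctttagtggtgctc
GGGCGG occurred 3 times in the Col5a3 window, 4 times in that of Col8a1 and 3 times in that of Col11a1, and none of them held TATAAA. Over all 33469 windows of the table, on both strands, GGGCGG was in 33.1%, CCAAT in 37.5% and TATAAA in 14.2%. Of the 22 windows of members with at least 50 UMIs, 15 held GGGCGG, 5 held CCAAT and 2 held TATAAA. These are matches of letters and were not tested as binding sites.

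VSMC-like cells had another mixture, in which fibrillar members made up 43.3% of collagen UMIs in the control library, basement membrane members 23.4% and the others, chiefly the multiplexins, 27.7%. Col1a1 was at 1669 CPM in control and 1378 CPM in case VSMC-like cells (-0.28, -0.30 to -0.25), and Col3a1 at 1546 and 1486 CPM (-0.06, -0.08 to -0.03). Their level in macrophage-like cells was 135 and 70.5 CPM for Col1a1 and 112 and 93.3 CPM for Col3a1. After thinning, 91.1% of control and 86.5% of case VSMC-like cells held Col1a1.

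Col18a1 was about as high as the fibrillar genes in VSMC-like cells, at 1526 and 1252 CPM (-0.29, -0.31 to -0.26). These cells held 90.1% of all Col18a1 UMIs in the control and 87.0% in the case library. Col15a1, the other multiplexin, was at 580 and 437 CPM (-0.41, -0.46 to -0.36). Col4a5, a basement membrane chain, was at 1285 and 1213 CPM (-0.08, -0.11 to -0.05), and VSMC-like cells held 81.8% and 80.5% of its UMIs. Col4a1 was at 405 and 308 CPM (-0.40, -0.45 to -0.34), and Col6a2 at 255 and 249 CPM (-0.03, -0.10 to 0.04). Col18a1, Col15a1 and Col4a5 were thus higher in VSMC-like than in fibroblast-like cells in both libraries.

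Of the 19 collagen genes with at least 50 UMIs in VSMC-like cells, 8 (42.1%) were at least 1.5-fold lower in the case library, against 16.0% of all 10213 genes, and none was higher by that much, against 6.26%. Their median log2 change was -0.41, against -0.14 over all genes. Among basement membrane chains, Col4a2 went from 44.8 to 19.8 CPM (-1.18, -1.38 to -0.97) and Col4a6 from 55.6 to 23.7 CPM (-1.23, -1.42 to -1.05). Col6a1 of the beaded filaments went from 107 to 56.7 CPM (-0.91, -1.03 to -0.78), and Col5a2 from 69.3 to 40.7 CPM (-0.77, -0.92 to -0.62). The others were low. Col13a1, a transmembrane collagen, went from 12.1 to 5.31 CPM (-1.19, -1.60 to -0.79), and the FACIT members Col14a1 from 32.2 to 18.7 CPM (-0.78, -1.01 to -0.56), Col16a1 from 17.7 to 11.2 CPM (-0.66, -0.96 to -0.37) and Col19a1 from 11.3 to 5.78 CPM (-0.96, -1.36 to -0.57). VSMC-like cells held 91.4% and 94.0% of Col13a1 UMIs in the control and case libraries. Macrophage-like cells held none, where a floor of 3 UMIs would be 7.79 CPM in the control and 5.28 CPM in the case library. The case VSMC-like level of Col13a1, 5.31 CPM, was thus about at that floor. VSMC-like cells also held 90.2% and 93.5% of Col19a1 UMIs, but its level there was not above that of macrophage-like cells beyond counting error in either library.

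The 11 other genes were less than 1.5-fold apart. Col8a1 was at 21.7 and 28.6 CPM (0.40, 0.18 to 0.62) and Col12a1 at 12.3 and 17.6 CPM (0.52, 0.24 to 0.82), which were the genes with values above 0 among the 19. Summed over all members, VSMC-like cells held 7738 CPM (7691 to 7786) in the control and 6621 CPM (6579 to 6662) in the case library, a log2 change of -0.23 (-0.24 to -0.21). Scaling by trimmed means (TMM) in place of total UMIs shifted every log2 change by 0.06 in fibroblast-like, 0.13 in VSMC-like and 0.25 in endothelial-like cells, which left the sum in VSMC-like cells at -0.10 and turned the sign of Col3a1, Col4a5 and Col6a2 there. Past 1.5-fold were then 7 lower genes, without Col16a1 (-0.53), and 1 higher gene, Col12a1 (0.65). The same shift moves the shares over all genes, which are not given here with TMM scaling, so these counts have no background beside them.

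VSMC-like cells were split further into 3 sub-gates. Cells with high Spp1 (osteopontin) that were not Notch1-positive numbered 200 and 413, Notch1-positive cells 87 and 217, and other VSMC-like cells 863 and 1976. The 8 lower genes had log2 changes below 0 in each sub-gate, with intervals below 0 for 6 genes in Spp1-high cells, 3 in Notch1-positive cells and 8 in the others. These genes were chosen in the same VSMC-like cells, of which the others made up 75.0% in the control and 75.8% in the case library. Lower values in the sub-gates were thus in part given by that choice, and no share over all genes is set beside these counts. The values nearest to 0 were Col14a1 (-0.26, -1.04 to 0.51) and Col5a2 (-0.33, -0.82 to 0.15) in Notch1-positive and Col19a1 (-0.28, -1.36 to 0.78) in Spp1-high cells. Col4a2 went from 42.3 to 21.0 CPM in Spp1-high cells, from 57.7 to 16.1 CPM in Notch1-positive cells and from 43.8 to 20.1 CPM in the others. Col6a1 went from 124 to 69.0 CPM, from 96.7 to 56.0 CPM and from 103 to 54.3 CPM in the same order. Spp1-high cells had the highest collagen sum of the 3, at 9597 and 7617 CPM, with Col4a5 at 1632 and 1338 CPM. In Spp1-high cells Col1a1 lay below Col3a1 already in the control library, at 1955 and 2158 CPM. In Notch1-positive cells Col1a1 stayed above Col3a1 in the case library, at 1785 and 1488 CPM. In the others the order turned as in the whole class.

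The chains of types IV and VI that assemble with each other differed in level. Col4a1 and Col4a2 are built into the same network protein and are read from neighbouring starts, yet in VSMC-like cells the table held 9.03 Col4a1 UMIs (8.29 to 9.85) for each Col4a2 UMI in the control and 15.5 (13.8 to 17.5) in the case library. In fibroblast-like cells the ratio was 20.2 (16.5 to 24.9) and 36.7 (29.2 to 46.8). Col4a5 over Col4a6 moved the same way, from 23.1 (21.5 to 24.9) to 51.3 (46.1 to 57.1) in VSMC-like cells and from 32.2 (25.8 to 40.6) to 62.7 (45.8 to 88.5) in fibroblast-like cells. Col6a2 over Col6a1 went from 2.39 (2.25 to 2.55) to 4.39 (4.08 to 4.74) and from 3.56 (3.34 to 3.80) to 4.75 (4.44 to 5.10). Col4a4 over Col4a3 did not follow these pairs. It was 14.1 (11.2 to 17.8) and 16.0 (11.9 to 21.9) in fibroblast-like cells, and in VSMC-like cells it went from 15.5 (9.04 to 28.8) to 8.74 (5.42 to 14.9), on 14 and 19 Col4a3 UMIs, with intervals that overlapped in both classes. In the pairs of Col4a1, Col4a5 and Col6a2 the more abundant chain was nearer to level between the libraries in VSMC-like cells, and the part of transcript ends or of the capture of low genes in the ratios was not tested.

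**Figure D5:**
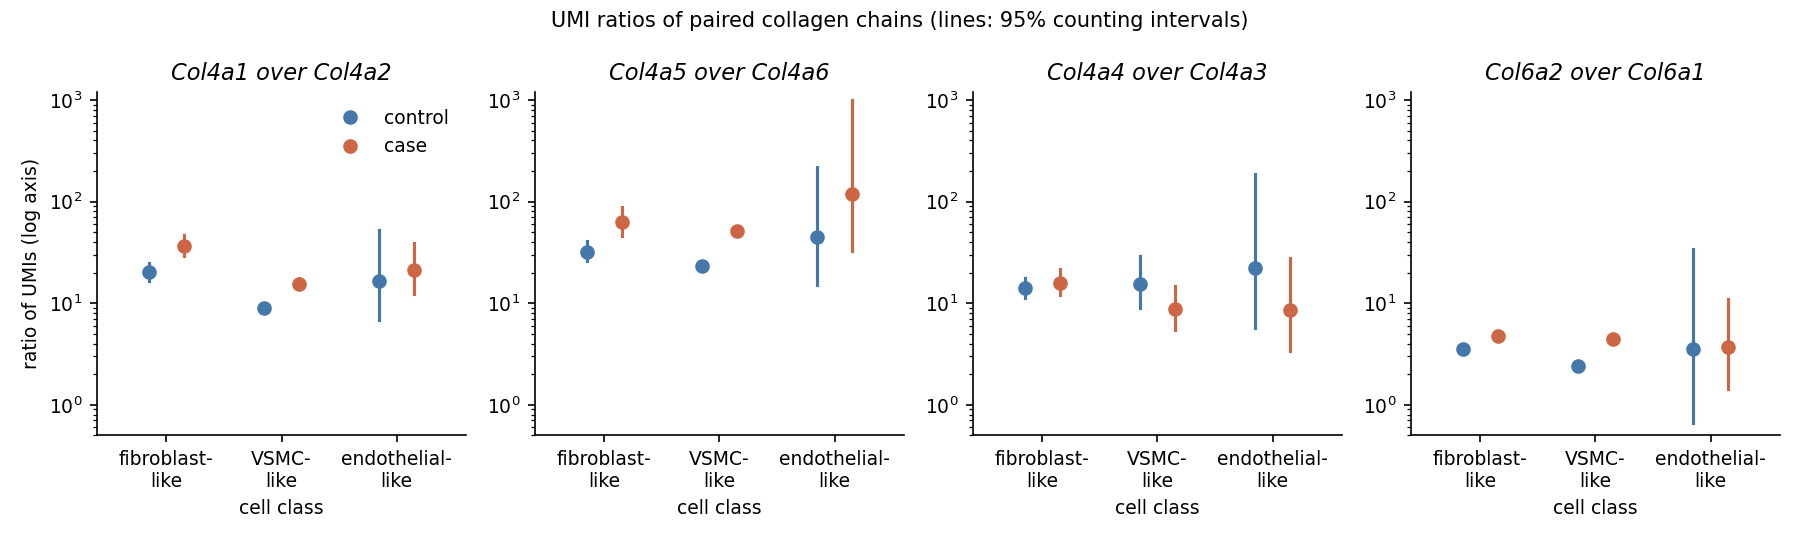
Ratio of UMIs of paired chains (y axis, log axis; lines are 95% counting intervals) in fibroblast-like, VSMC-like and endothelial-like cells of the control and case libraries. In fibroblast-like and VSMC-like cells the case ratio lies above the control ratio for the pairs of Col4a1, Col4a5 and Col6a2, whereas for Col4a4 over Col4a3 it lies below in VSMC-like cells with overlapping intervals; in endothelial-like cells the intervals overlap for each pair.

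The RefSeq windows of Col4a1, at chr16:84885347-84885646 (plus strand), and Col4a2, at chr16:84885471-84885770 (minus strand, both GRCr8), are printed because the genes face away from each other and share 176 bases, which are in capitals. Each sequence runs in the direction of its own gene.
Col4a1: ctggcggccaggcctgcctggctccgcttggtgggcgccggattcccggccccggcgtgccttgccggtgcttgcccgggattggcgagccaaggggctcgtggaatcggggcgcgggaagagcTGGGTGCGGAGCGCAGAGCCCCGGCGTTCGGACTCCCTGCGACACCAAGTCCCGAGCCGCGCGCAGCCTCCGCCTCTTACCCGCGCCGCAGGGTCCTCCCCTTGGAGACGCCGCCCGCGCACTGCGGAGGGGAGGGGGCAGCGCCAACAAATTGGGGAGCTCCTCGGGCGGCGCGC
Col4a2: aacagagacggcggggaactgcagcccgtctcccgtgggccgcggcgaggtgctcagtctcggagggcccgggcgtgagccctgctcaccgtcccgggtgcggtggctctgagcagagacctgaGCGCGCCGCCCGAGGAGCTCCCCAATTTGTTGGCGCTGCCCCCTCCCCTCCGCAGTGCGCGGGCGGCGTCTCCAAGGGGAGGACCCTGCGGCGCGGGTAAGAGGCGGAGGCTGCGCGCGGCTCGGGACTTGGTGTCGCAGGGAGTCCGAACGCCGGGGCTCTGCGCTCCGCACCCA
The pair of genes that showed these unequal UMI levels therefore starts from overlapping sequence, with 2 GGGCGG in each window. The Col4a3 and Col4a4 windows share 88 bases in the same way, and those of Col4a5 and Col4a6 lie 914 bases apart.

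Endothelial-like cells held 2410.0 CPM of collagen in the control (2263 to 2564) and 1883 CPM in the case library (1800 to 1969), a log2 change of -0.36 (-0.47 to -0.24) on 1002 and 1919 UMIs. Their leading collagen in both libraries was Col8a1, at 599 CPM (527 to 678) and 403 CPM (365 to 444), a log2 change of -0.57 (-0.80 to -0.34). After thinning, Col8a1 was seen in 36.5% of 52 control and 34.3% of 201 case endothelial-like cells, and in no macrophage-like cell. These cells were 2.38% of control cells and held 33.0% of the library's Col8a1 UMIs, and in the case library 4.34% of cells held 19.6%.

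Col18a1 was at 140 CPM (106 to 180) in control and 293 CPM (261 to 329) in case endothelial-like cells (1.07, 0.66 to 1.5), and Col15a1 at 24.1 CPM (11.5 to 44.2) and 57.9 CPM (44.1 to 74.7), on 10 and 59 UMIs (1.27, 0.29 to 2.40). Col4a1 was at 200 and 290 CPM (0.54, 0.19 to 0.91) and Col4a5 at 325 and 235 CPM (-0.46, -0.77 to -0.15). Lower in the case library were Col3a1, at 495 and 222 CPM (-1.16, -1.44 to -0.88), Col4a4, at 106 and 42.2 CPM (-1.33, -1.97 to -0.69), and Col14a1, at 180.4 and 61.8 CPM (-1.55, -2.05 to -1.04). Col1a1 was at 164 and 131 CPM (-0.33, -0.76 to 0.12) and Col12a1 at 64.9 and 54.9 CPM (-0.24, -0.93 to 0.48). Control macrophage-like cells held Col15a1 at 15.6 CPM (5.72 to 33.9) and Col1a1 at 135 CPM (101 to 177). The control endothelial-like levels of Col15a1 and Col1a1 were thus not above this floor beyond counting error.

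Of the 10 collagen genes with at least 50 UMIs in endothelial-like cells, 2 (20%) were higher and 3 (30.0%) lower by at least 1.5-fold, and of all 3518 genes 20.3% were higher and 23.5% lower, so that these counts were near the background. With TMM scaling 3 were higher and 3 lower, for which no share over all genes is given. Fibroblast marker UMIs were also fewer in case endothelial-like cells, with a median of 1.48 per 10000 UMIs against 3.40, and VSMC marker UMIs with 7.42 against 11.3. Their part in the lower Col3a1 and Col14a1 was not tested. Where classes were set by clusters instead of gates, 62 control and 310 case cells were endothelial-like. The collagen sum was then higher in the case library (log2 change 0.20), as were Col3a1 (0.71) and Col1a1 (1.06), and Col15a1 and Col18a1 were level (0.02 each). Into these clusters 11 mixed case cells brought 781 Col3a1 UMIs and 6 fibroblast-like case cells 284, against 226 in the 212 gated case endothelial-like cells. Of Col18a1 and Col15a1, 3 VSMC-like control cells brought 85 and 36 UMIs, against 58 and 10 in the 53 gated control endothelial-like cells. In the case library 9 VSMC-like cells brought 54 and 38 UMIs of these genes, against 299 and 59 in the gated cells. The endothelial results on Col1a1, Col3a1, Col15a1 and Col18a1 thus rest on how the class was drawn, whereas Col4a4 (-1.02), Col8a1 (-0.60) and Col14a1 (-1.17) were lower either way.

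Schwann-like cells, the glia of the nerves in the artery wall, numbered 18 and 45 and held 349 and 1191 collagen UMIs. Their sum was 3953 CPM (3549 to 4390) in the control and 8534 CPM (8056 to 9032) in the case library (1.11, 0.94 to 1.29). Col5a3 was at 476 CPM (343 to 643) and 580 CPM (461 to 721), above its 41.4 and 89.9 CPM in fibroblast-like cells. Col4a1 was at 453 and 1161 CPM (1.36, 0.85 to 1.89), Col18a1 at 102 and 709 CPM (2.80, 1.82 to 3.97), Col1a1 at 1031 and 2579 CPM (1.32, 0.99 to 1.67) and Col3a1 at 725 and 2042 CPM (1.49, 1.10 to 1.91). Col16a1 was at 193 and 150.5 CPM. Col28a1, singled out after its values were seen, had 24 of its 25 control UMIs and 16 of its 23 case UMIs in these cells, at 272 and 115 CPM, and Col8a1 had none.

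Cells with VSMC and fibroblast markers together held 24805 CPM of collagen in the control and 18377 CPM in the case library, between the levels of fibroblast-like and VSMC-like cells. Of this, 86.3% and 83.7% was fibrillar. Col1a1 was at 10678 and 7452 CPM, Col18a1 at 933 and 687 CPM and Col4a5 at 741 and 759 CPM. Their depth differed, with a median of 2328 UMIs in control and 9363 UMIs in case cells, and their median doublet score was 0.245 and 0.223, against 0.0518 and 0.0456 in fibroblast-like cells. Whether these are cells or pairs of cells was not tested.

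Genes of the collagen pathway were read in the same way. Of the 13 measured genes for chain modification and folding in fibroblast-like cells, 3 (23.1%) were at least 1.5-fold lower, against 15.2% of all genes, and 0 higher, against 7.45%. They were Ppib, a prolyl isomerase, at 724 and 399 CPM, and the prolyl hydroxylase family genes P3h3, at 142 and 89.0 CPM, and P3h4, at 27.6 and 14.6 CPM. In VSMC-like cells 4 of 14 (28.6%) were lower, against 16.0% of all genes, with Ppib at 567 and 288 CPM and P3h3 at 163 and 90.8 CPM. In endothelial-like cells 4 of 10 (40.0%) were lower, against 23.5% of all genes, with Ppib at 534 and 240.4 CPM. The collagen chaperone Serpinh1 was less than 1.5-fold apart, at 789 and 721 CPM in fibroblast-like and 489 and 425 CPM in VSMC-like cells.

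No gene of processing and crosslinking was past 1.5-fold, of 7 measured in fibroblast-like and 7 in VSMC-like cells, where 7.45% and 6.26% of all genes were higher and 15.2% and 16.0% lower. Lox, the crosslinking enzyme lysyl oxidase, was at 517 and 470 CPM in fibroblast-like and 636 and 498 CPM in VSMC-like cells. In endothelial-like cells it was the only measured gene of this list and was lower, at 390 and 207 CPM. Among receptors, 2 of 6 (33.3%) were higher in case fibroblast-like cells, against 7.45% of all genes, the integrin chains Itga11, at 10.9 and 29.3 CPM, and Itga1, at 6.45 and 10.5 CPM, and 0 of 6 in VSMC-like cells, against 6.26% of all genes. In endothelial-like cells Itga1 was at 7.22 and 48.1 CPM, on 3 and 49 UMIs, a log2 change of 2.74 (1.10 to 5.06).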

How the data were processed

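Counts of UMIs for every gene and barcode of both libraries were deposited by the authors in 1 table, made with Cell Ranger 3.1.0 per the file header, on build Rnor_6.0 per the submitters' processing notes, which also list Seurat. The chemistry version is not given in the sources used here. The barcode suffix that belongs to each group was taken from the barcode numbers that the study states before quality control. Members and lists were chosen with earlier results of these data known.

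Barcodes were kept with at most 20% mitochondrial UMIs, log10 UMIs and genes within 2 SD, a residual of genes on UMIs within 3 robust SD and at least 1000 UMIs. VSMC-like or fibroblast-like cells needed at least 60 marker UMIs per 10000 UMIs with the other sum under 60. Endothelial-like, macrophage-like and Schwann-like cells needed 10, 20 and 12 with at least 3 markers seen. Sub-gates were Postn (5), Gfpt2 (20), Pi16 (10), Spp1 (5), Notch1 (2) and Pcsk1 (3). Postn took precedence over Gfpt2, Gfpt2 over Pi16, and Notch1 over Spp1. These limits were set after the distributions had been seen. Scrublet marked 6 cells (0.0782%), too few for the caller to have worked, so doublets were left in. UMIs were summed per class and library, with exact Poisson (sums), Clopper-Pearson (shares) and conditional binomial (ratios) intervals at 95%, a floor of 3 UMIs or cells where a count was 0, and no p-value was computed. Genes with at least 50 UMIs in a class were compared. Described in full were the 12 members with the most UMIs and those at least 1.5-fold apart. The script for fold changes and their intervals was tested on simulated data that held counting error only. Spread between cells was not simulated. R 4.3.3 with edgeR 4.0.16 (TMM factors only) and Python 3.11.15 with scanpy 1.11.5, scipy 1.17.1, numpy 2.4.6 and pandas 2.3.3 were used.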

Additional observations from a re-analysis of the deposited data

Results flagged for a closer look

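Over the fibroblast-like, VSMC-like, endothelial-like and Schwann-like cells, 6 members with at least 50 UMIs in the class moved in opposite directions in different classes between the same libraries, with counting intervals on opposite sides of 0. The share of all genes that did so is not given, so the 6 have no background beside them. Col18a1 in Schwann-like cells (9 control and 99 case UMIs) and Col15a1 in endothelial-like cells (10 and 59) passed the filter through the case library. The differences between classes were not tested, since each library stands alone. Col8a1 had a log2 change (case over control) of 2.64 in fibroblast-like, 0.40 in VSMC-like and -0.57 in endothelial-like cells. Col15a1 had -0.49 in fibroblast-like, -0.41 in VSMC-like and 1.27 in endothelial-like cells. Col18a1 had -0.29 in VSMC-like, 1.07 in endothelial-like and 2.80 in Schwann-like cells. The endothelial values of Col15a1 and Col18a1 rest on 53 control cells and were 0.02 each with classes from clusters. Col4a1 had -0.40 in VSMC-like cells, whereas fibroblast-like cells had 0.49, endothelial-like cells 0.54 and Schwann-like cells 1.36. Col1a1 had -0.49 in fibroblast-like and -0.28 in VSMC-like cells, against 1.32 in Schwann-like cells. Col3a1 had -0.063 in fibroblast-like, -0.057 in VSMC-like and -1.16 in endothelial-like cells, against 1.49 in Schwann-like cells. With TMM scaling it was no longer below 0 in fibroblast-like and VSMC-like cells. In endothelial-like cells Col3a1 was 0.71 with classes from clusters. The Schwann-like values rest on 18 control cells and all endothelial values on 53.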

How the results depend on the processing

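8 alternatives were planned, and leaving out the highest 5% of doublet scores was added after seeing the data. No paired analysis was possible because each group is 1 library. Leaving out the Scrublet calls, or a filter of 10 in place of 50 UMIs, kept the same fibroblast-like, VSMC-like and endothelial-like cells. Collagen sums and log2 changes of single genes could thus not move under either of these alternatives. The log2 change of the collagen sum stayed below 0 in fibroblast-like and VSMC-like cells under every alternative run. In fibroblast-like cells it was -0.26 and became -0.30 with classes from clusters, -0.23 with stricter gates, -0.19 with TMM and -0.33 as a mean over cells. In VSMC-like cells it was -0.23 and became -0.10 with TMM, -0.29 as a mean over cells and -0.205 with at most 10% mitochondrial UMIs. In endothelial-like cells it was -0.36, -0.11 with TMM and 0.20 with clusters, where 8 instead of 5 members lay past 1.5-fold and Col3a1 went from -1.16 to 0.71. No share over all genes is given for the clusters, so the 8 have no background beside them. Besides the gated cells, 11 mixed, 71 unassigned, 9 VSMC-like and 6 fibroblast-like case cells joined these clusters. The 11 mixed cells brought 781 Col3a1 and 604 Col1a1 UMIs, and the 6 fibroblast-like cells 284 and 170. Gated case endothelial-like cells held 226 and 133. With these clusters Col1a1 went from -0.33 to 1.06. The cause was not tested further. Of 19 changes past 1.5-fold, 14 stayed past it in the same direction under each alternative. The other 5 were Col4a3 in fibroblast-like (lowest size -0.55), Col16a1 in VSMC-like (-0.53) and Col3a1, Col15a1 and Col18a1 in endothelial-like cells. Depth limits the macrophage-like values, from which the floor was read, most, with 176 control and 174 case collagen UMIs, and then the Schwann-like and endothelial-like values, with 349 and 1002 in the control library.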

Other observations

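Cells of any class positive for Pcsk1, a proprotein convertase, numbered 15 in the control and 181 in the case library. They held 11492 CPM of collagen in the control and 10390 CPM in the case library. Col18a1 was at 1749 and 950 CPM in them (-0.88 on the log2 scale, -1.09 to -0.66), and Col4a1 at 543 and 303 CPM (-0.84, -1.22 to -0.45). Col8a1 had 2 control UMIs and 56 case UMIs, at 15.1 and 63.5 CPM (log2 change 2.07, 0.15 to 5.15). Among the VSMC-like cells of this set the log2 change was -0.62 (-0.86 to -0.36) for Col18a1. There the intervals of Col4a1 (-0.52, -1.03 to 0.03) and Col8a1 (1.12, -0.87 to 4.23) spanned 0. The part of the mix of classes in the pooled values was not tested.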
